A study of Homo sapiens with 17 samples.

Results

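ZNF703 and NUMBL are a pair of human transcripts on which RANGAP1 eCLIP gave many peaks far above input. They were chosen for these RANGAP1 folds, measured in the lists described here, so every fold below is a description and none is tested. A peak counted as a member when its midpoint fell, on the same strand, in hg19 chr8:37553301-37557537 (plus strand, ZNF703) or chr19:41171810-41196602 (minus strand, NUMBL). By this rule 190 of the 389788 peaks in 11 lists were members, 134 on ZNF703 and 56 on NUMBL. The ZNF703 interval spans 4237 nt and the NUMBL interval 24793 nt. The RefSeq genes of those names on GRCh38 span 4238 and 24747 nt.

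ZNF703 is a zinc finger protein that acts as a transcriptional co-repressor, and its gene is amplified in luminal breast cancers. NUMBL, or Numb-like, is an endocytic adaptor known for restraining Notch signalling in neural progenitors. RANGAP1 activates the GTPase activity of Ran and is best known at the outer face of the nuclear pore, where it helps set the direction of nuclear transport. It is not a classical RNA-binding protein, and the series asked where on RNA such candidate proteins are found.

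eCLIP fixes proteins to the RNA they touch with ultraviolet light, pulls down 1 protein with an antibody and sequences the RNA fragments that come with it. All samples were 293T, a human embryonic kidney line, irradiated while plated with 400 mJ per square cm at 254 nm, and the lysates were digested with RNase I. RANGAP1, AIFM1 and NUMA1 (RANGAP, AIFM and NUMA in the sample titles), VIM and ZNF184 had 2 eCLIP libraries each and RNF219 had 1. A size-matched input, 1 for each protein, is RNA cut without pull-down from the same gel window, which reached 75 kDa above the protein. The replicates of a protein therefore share 1 input and are not fully independent, and a difference between proteins cannot be told apart from a difference between their inputs. The series calls the replicates biological and says no more of their origin. Of the other proteins, AIFM1 is a mitochondrial flavoprotein, NUMA1 helps to build spindle poles, VIM is vimentin of the intermediate filaments, ZNF184 has zinc fingers and RNF219 a RING finger.

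The RANGAP1 peaks on NUMBL gathered near the 5′ end of its interval, so the DNA just before its 5′-most RefSeq start is shown as context. These are the 250 bases upstream on the minus strand, GRCh38 chr19:40690652-40690901, from RefSeq, with CG dinucleotides in capitals.
NUMBL upstream: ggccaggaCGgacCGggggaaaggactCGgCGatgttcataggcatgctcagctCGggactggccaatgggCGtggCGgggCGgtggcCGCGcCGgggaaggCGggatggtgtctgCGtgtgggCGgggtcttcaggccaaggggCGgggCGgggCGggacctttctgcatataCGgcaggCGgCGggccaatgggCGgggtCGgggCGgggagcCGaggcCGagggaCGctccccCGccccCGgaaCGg
G and C made up 74.4% of these bases, and CG, which reads the same on both strands, occurred 29 times. Over 35116 RefSeq upstream windows of the same length the medians were 58.0% and 11, and 11.6% and 14.1% of the windows were at least as high. A second RefSeq start lies 487 nt from the first, with 63.2% G and C and 8 CG in its 250 bases. This DNA is shown as context and not as RNA that was crosslinked. The NUMBL interval is 46 nt longer than the RefSeq gene, and hg19 was not aligned to GRCh38 here. Whether the 5′-most NUMBL peaks reach into these bases was therefore not checked. No sequence was assigned to the peaks themselves.

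The values per peak are the authors' log2 fold over the size-matched input and their −log10 p. A peak is called significant here when the log2 fold was at least 3, which is 8-fold, and −log10 p was at least 3. Read numbers were recovered from these values, since within a library each fold is a ratio of read numbers scaled by the depth ratio. That depth ratio, input divided by eCLIP, was 1.48 and 1.78 for RANGAP1, and between 0.534 and 4.84 for the others. To be significant beside 1 input read took at least 10 and 9 reads in the RANGAP1 libraries, 5 and 6 in VIM and 12 and 23 in AIFM1. In the RANGAP1 libraries the read numbers of every member peak were settled by the p-value. For 39 of the 190 member peaks, all in other libraries, the read numbers are the smallest that give the fold. Intervals at 95% cover counting error only, and the number of PCR copies among the reads is unknown.

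On ZNF703 every RANGAP1 peak was above input. RANGAP1 replicate 1 had 16 peaks with log2 folds between 1.55 and 3.42 and a median of 2.53. RANGAP1 replicate 2 had 12 peaks between 2.17 and 5.11, with a median of 2.96. Median folds in the other libraries were 0.80 and 0.28 for AIFM1, −0.18 and 0.03 for NUMA1, −0.16 for RNF219, 1.79 and 1.33 for VIM and 0.92 and 1.47 for ZNF184. Both RANGAP1 medians were above the highest of the other 9, which belonged to VIM replicate 1. In other libraries some ZNF703 peaks were below input, among them 8 of 18 in ZNF184 replicate 1, 7 of 18 in AIFM1 replicate 2 and 5 of 7 in NUMA1 replicate 1.

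Significant ZNF703 peaks numbered 2 of 16 and 6 of 12 in the RANGAP1 libraries, whose lists as a whole had 1.52% and 2.99% significant peaks. AIFM1 had 0 of 11 and 2 of 18, against 0.216% and 0.214% of all its peaks. NUMA1 had 0 of 7 and 0 of 11, with 1.51% and 0.877% over the lists, and RNF219 0 of 8 with 0.926%. VIM had 1 of 9 and 0 of 6, with 5.29% and 4.5% over the lists. ZNF184 had 1 of 18 and 4 of 18, with 3.15% and 4.82%. Since the transcript was chosen by the RANGAP1 contrast, nothing is read from its share against the list. Significant peaks were found on ZNF703 in 3 of the other 5 proteins as well, at the positions given further on.

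Libraries differ in the fold that peaks of low input reach. ZNF703 peaks with at least 10 input reads were therefore set against the other peaks of their own library under the same minimum. The difference of medians was 1.95 and 2.27 for RANGAP1, on the log2 scale. It was 0.37 and −0.28 for AIFM1, −0.45 and −0.41 for NUMA1, 0.20 for RNF219, 1.22 and 1.10 for VIM and −0.07 and 1.01 for ZNF184. The mean was 2.11 ± 0.23 for RANGAP1 (SD, n = 2) and 0.30 ± 0.66 for the others (SD, n = 9), a difference of 1.81. The groups did not overlap, although both VIM libraries, ZNF184 replicate 2, AIFM1 replicate 1 and RNF219 were also above the middle of their lists. Among all peaks with that minimum, 1.26% and 0.885% of the RANGAP1 lists had a fold at or above the ZNF703 median, against 11.2% and 16.9% of the VIM lists and 55.4% and 13.2% of the ZNF184 lists.

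Depth on ZNF703 was ample for RANGAP1. Its peaks held 1196 eCLIP reads beside 336 input reads in replicate 1, and 1027 beside 243 in replicate 2. The log2 fold of these sums was 2.39 (95% interval 2.22 to 2.57) and 2.91 (2.71 to 3.12). ZNF184 replicate 2, which had more reads still, held at least 1574 eCLIP and 1199 input reads, with a log2 fold of 1.01 (0.90 to 1.11). The sums run over peaks called separately in each library.

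**Figure D1:**
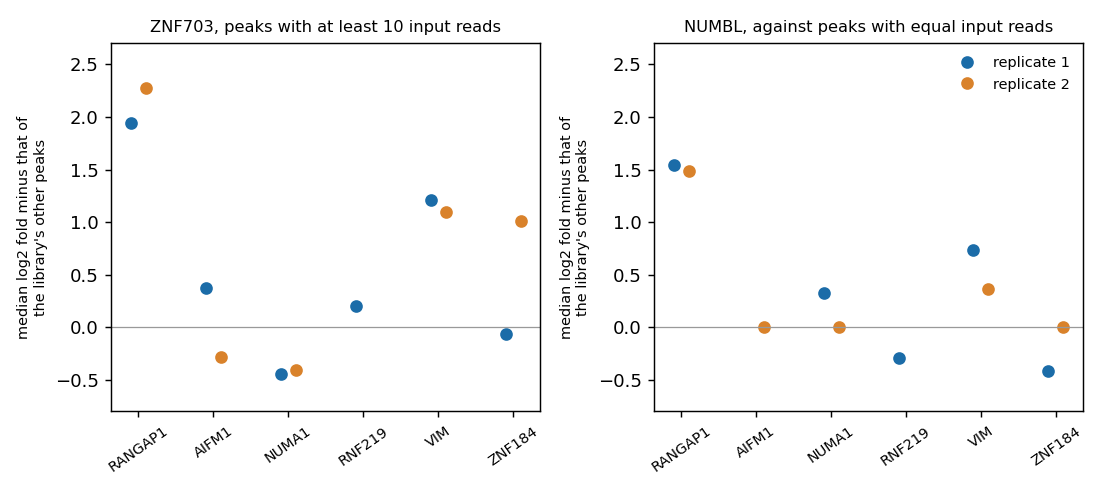
Median log2 fold of the member peaks minus that of the library's other peaks, by protein, with a point for each replicate; ZNF703, at left, is over peaks with at least 10 input reads, and NUMBL, at right, is set against peaks with equal input reads. The RANGAP1 points lie at 1.95 and 2.27 on ZNF703 and at 1.54 and 1.49 on NUMBL, above every other point of the same panel.

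Merged over all lists, the ZNF703 peaks formed 30 regions, of which 11 held a peak of both RANGAP1 replicates. The fold was higher in replicate 2 in 11 of these 11 regions, by a median of 0.24 on the log2 scale. Over the 11 regions the folds of the replicates had a Pearson r of 0.907, which is a description since both rest on the same input reads. RANGAP1 was significant in 5 regions in either replicate and in 2 regions in both.

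The region nearest the 5′ end, 9 to 100 nt from it (hg19 chr8:37553309-37553400), carried the highest RANGAP1 fold. RANGAP1 replicate 1 had 1 peak there with 123 eCLIP and 17 input reads and a log2 fold of 3.42 (2.68 to 4.24). RANGAP1 replicate 2 had a pair of abutting peaks, 1 with 88 and 15 reads at 3.38 and 1 with 97 and 5 reads at 5.11 (3.84 to 6.76). The 5.11 rests on the 3′ part of the region with 5 input reads, while the single peak of replicate 1 covers both parts. The same region reached 1.93 and 1.62 in AIFM1, 0.28 and 1.13 in NUMA1, −1.29 in RNF219 and −0.05 and 1.62 in ZNF184, and VIM had no peak in it. None of these was significant.

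The other region significant in both RANGAP1 replicates lay 2762 to 2825 nt from the 5′ end. It had 103 eCLIP and 17 input reads and a log2 fold of 3.16 (2.41 to 3.99) in RANGAP1 replicate 1. In RANGAP1 replicate 2 it had 101 and 15 reads and a fold of 3.58 (2.79 to 4.47). It was nearly free of peaks of other proteins: 1 peak, of AIFM1 replicate 2, lay at −0.32 with at least 3 eCLIP and 2 input reads. A further stretch, 1722 to 1811 nt from the 5′ end, was significant in RANGAP1 replicate 2 at 3.38 and missed the 8-fold line in replicate 1 at 2.61. In that stretch 7 libraries of other proteins had a peak, and their folds ran between −1.48 in RNF219 and 1.23 in VIM replicate 2.

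Between 433 and 1676 nt from the 5′ end neither RANGAP1 library had a peak. NUMA1 replicate 1 had its highest ZNF703 fold in this gap, at 1.33 from 14 eCLIP and 10 input reads. Near the 3′ end RANGAP1 had 3 peaks in each replicate, at folds between 2.00 and 2.50, and none was significant. The most reads of any RANGAP1 peak on ZNF703, 149 beside 55 of the input in replicate 1 and 141 beside 55 in replicate 2, fell there. The peak with the most reads was thus not the one with the highest fold.

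**Figure D2:**
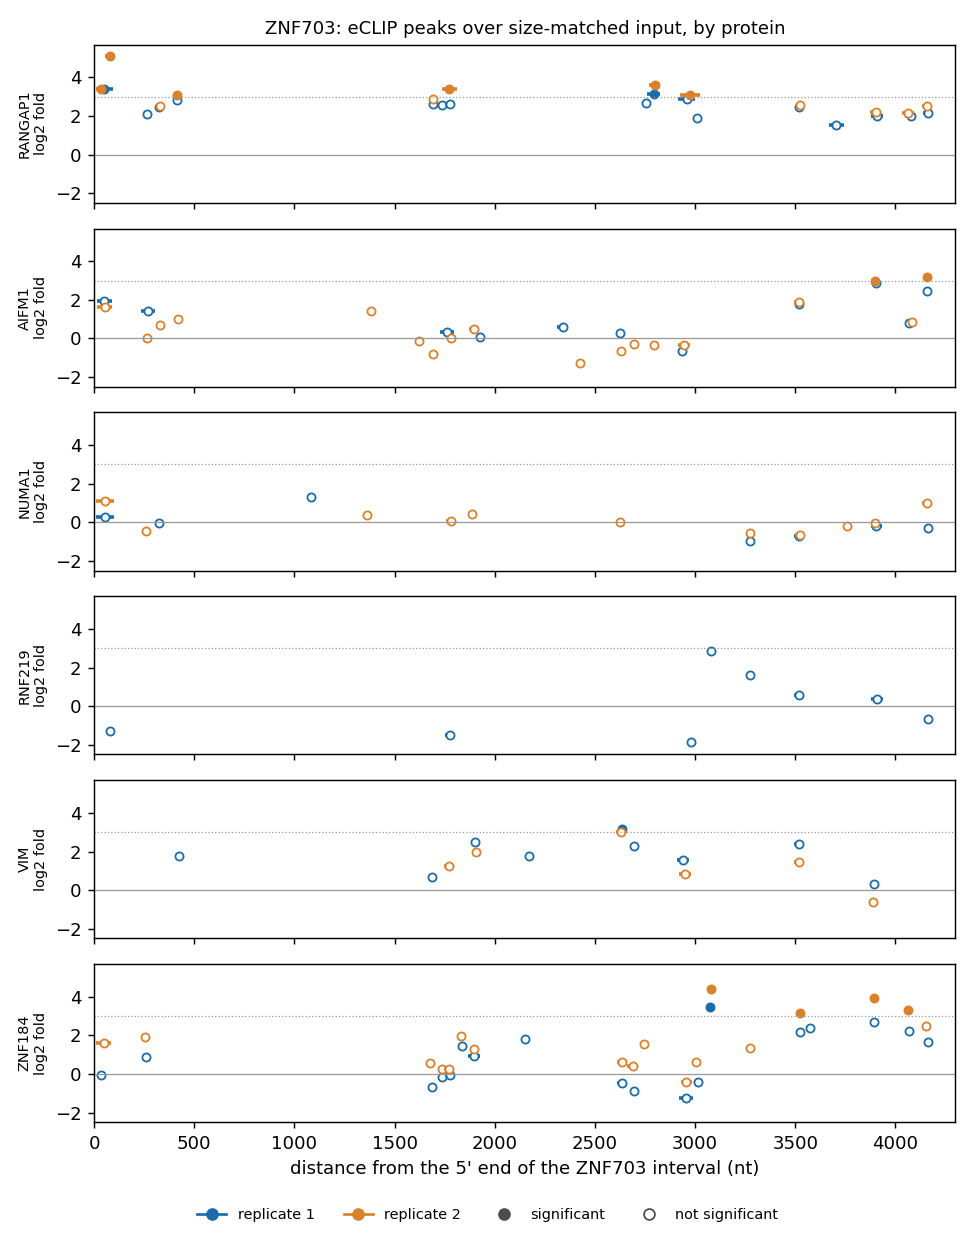
Log2 fold over input of each ZNF703 peak against its distance in nt from the 5′ end, 1 row per protein, coloured by replicate, with filled points for significant peaks. RANGAP1 peaks are all above 0 and highest within 100 nt of the 5′ end, at 3.42 and 5.11, while ZNF184 is highest at 4.42 between 3058 and 3102 nt, where RANGAP1 has no peak.

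Position within the interval was not part of the choice. The interval was cut into 10 equal segments, numbered from the 5′ end. RANGAP1 folds on ZNF703 were higher in segment 1 than in segment 10, by 0.62 in replicate 1 and 1.04 in replicate 2, which averages 0.83 ± 0.30 (SD, n = 2). The same difference of medians was −0.79 and −2.15 in AIFM1, 0.37 and −0.14 in NUMA1, −1.13 in RNF219 and −1.82 and −1.54 in ZNF184. VIM replicate 1 was at 1.48 from 1 peak at each end, and VIM replicate 2 had no peak in segment 1. The AIFM1 peaks in segment 10 had only 2 to 7 input reads. RANGAP1 and ZNF184 thus ran in opposite directions along the transcript in both replicates. Over peaks, Spearman's rho of fold against position was −0.55 and −0.67 in RANGAP1 (16 and 12 peaks) and 0.52 and 0.49 in ZNF184 (18 peaks each), as a description of peaks that share 1 library.

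The inputs also differed along ZNF703. In segment 10 lay 26.2% and 29.2% of the RANGAP1 eCLIP reads in member peaks, but 33.3% and 45.7% of the RANGAP1 input reads under the same peaks. For ZNF184 segment 10 held 16.2% and 15.9% of eCLIP reads but only 4.06% and 3.50% of input reads. RANGAP1 therefore had the larger share of its own reads at the 3′ end, and ZNF184 the larger fold. In segment 7 lay 21.3% and 26.4% of the ZNF184 eCLIP reads and 49.1% and 47.0% of its input reads. Shares of ZNF184 replicate 1 use least read numbers for 8 of its 18 peaks. Each share covers called peaks only, and peaks were called separately in each library, so that 1 input gives a share for each replicate.

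**Figure D3:**
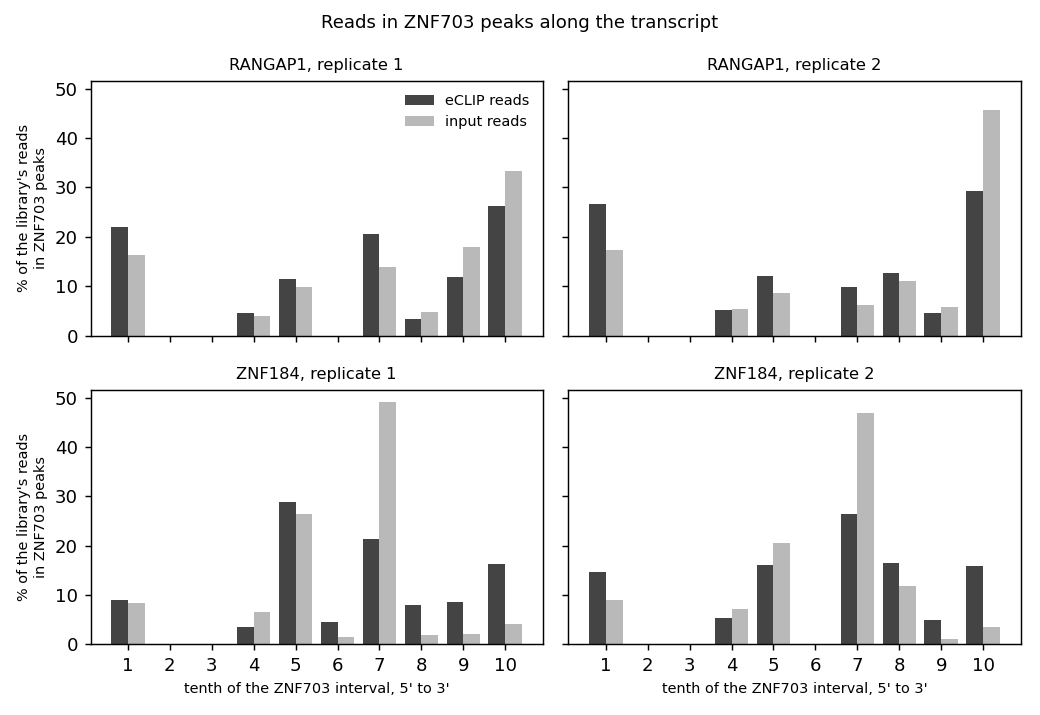
Share of the reads in ZNF703 peaks, in percent, by segment of the interval, 10 from 5′ to 3′, for RANGAP1 above ZNF184 and each replicate in its own panel; dark bars are eCLIP reads and light bars input reads. In segment 10 the light bar is the taller for RANGAP1, 33.3% and 45.7%, and the dark bar is the taller for ZNF184, 16.2% and 15.9%.

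Other proteins had their own high points on ZNF703. ZNF184 reached 3.50 in replicate 1 and 4.42 in replicate 2 at 3058 to 3102 nt from the 5′ end, from 58 and 98 eCLIP reads beside 7 of the input. RNF219 lay there at 2.88, from 21 reads beside 2, and no RANGAP1 library had a peak. VIM was highest at 2603 to 2659 nt, at 3.17 from 13 reads beside 7 in replicate 1 and 2.99 from 17 beside 7 in replicate 2, again where RANGAP1 had none. Its next highest region, at 1865 to 1945 nt, lay at 2.52 and 1.95, from 13 reads beside 11 in each replicate, and had no RANGAP1 peak either. RNF219 reached 1.60 at 3258 to 3294 nt from 13 reads beside 3.

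A region 3875 to 3939 nt from the 5′ end had a peak in all 11 libraries. There the RANGAP1 folds were 2.00 and 2.19, below 2.87 and 3.00 in AIFM1 and 2.71 and 3.92 in ZNF184. NUMA1 was at −0.18 and −0.04, RNF219 at 0.37 and VIM at 0.30 and −0.64. The AIFM1 folds rest on 2 input reads, with 12 and 30 eCLIP reads, and their intervals reach down to 0.70 and 1.02. In the region closest to the 3′ end, 4133 to 4186 nt, RANGAP1 was at 2.17 and 2.50 and AIFM1 at 2.45 and 3.18. ZNF184 was below RANGAP1 there, at 1.68 and 2.49. The AIFM1 folds there rest on 2 input reads, and their intervals, which reach down to 0.18 and 1.22, include the RANGAP1 folds. Between these regions, at 4034 to 4105 nt, RANGAP1 was at 2.02 and 2.17 and AIFM1 at 0.80 and 0.86. ZNF184 was higher, at 2.23 and 3.31. The ZNF184 replicate 1 interval at 4034 to 4105 nt, 1.24 to 3.35, includes the RANGAP1 folds. That of ZNF184 replicate 2, 2.34 to 4.44, lies above them. By the folds alone RANGAP1 was thus not the highest protein at the 3′ end of ZNF703. Which protein was highest is not settled in every region, given the counting error.

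Compared region by region, RANGAP1 was higher than NUMA1 in 7 of 7 shared regions, than RNF219 in 6 of 6 and than VIM in 6 of 6. It was higher than AIFM1 in 10 of 12 regions and than ZNF184 in 7 of 10. Regions without a RANGAP1 peak did not enter these counts. Among those left out were the regions where NUMA1, RNF219, VIM and ZNF184 had their highest folds. The median difference in log2 fold was 2.58 against NUMA1, 3.75 against RNF219, 1.79 against VIM, 1.87 against AIFM1 and 0.89 against ZNF184. ZNF184 was the nearest to RANGAP1 by this measure.

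On NUMBL both RANGAP1 libraries again had all peaks above input. RANGAP1 replicate 1 had 10 peaks with log2 folds between 2.02 and 3.73 and a median of 2.81. RANGAP1 replicate 2 had 15 peaks between 2.29 and 4.83 with a median of 3.29. Significant were 4 of 10 and 9 of 15 RANGAP1 peaks, beside the 1.52% and 2.99% of their whole lists given above, and 0 of the 31 peaks of all other libraries, whose lists had between 0.214% and 5.29%. Nothing is read from these counts.

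Read numbers on NUMBL were small. RANGAP1 peaks had 9 to 21 eCLIP reads in replicate 1 and 8 to 24 in replicate 2, and 1 to 4 input reads. No NUMBL peak of any library had more than 6 input reads. AIFM1 replicate 1 had no peak on NUMBL, and the others had 7 (AIFM1 replicate 2), 3 and 4 (NUMA1), 2 (RNF219), 1 and 2 (VIM) and 9 and 3 (ZNF184). Their eCLIP reads per peak did not go above 9. Peaks of that size could not have been significant in AIFM1 replicate 2, RNF219 or either ZNF184 library. These needed 23, 18, 11 and 10 reads beside 1 input read. NUMA1 replicate 1 and VIM replicate 2 needed 9 and 6, and their NUMBL peaks had at most 5. The count of 0 significant peaks in these libraries thus follows from their few reads per peak. VIM replicate 1 needed 5, and its 1 peak had 5 beside 2 input reads. NUMA1 replicate 2 needed 7, and its largest peak had 8 beside 5 input reads. Why reads per peak were few was not tested.

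The median NUMBL folds of the others were 0.68 in AIFM1 replicate 2, 1.59 and 1.80 in NUMA1, 0.78 in RNF219, 3.60 and 2.66 in VIM and 1.77 and 1.61 in ZNF184. VIM replicate 1 was above both RANGAP1 medians on this plain scale, from 1 peak with 5 eCLIP and 2 input reads. The RANGAP1 lists as a whole had medians of 1.24 and 1.42, against 2.27 in the list of VIM replicate 1. Less the median of the other peaks, NUMBL stood at 1.57 and 1.87 in RANGAP1, and VIM was at 1.32 and 0.47, AIFM1 replicate 2 at 0.00, NUMA1 at 0.22 and 0.45, RNF219 at −0.29 and ZNF184 at 0.54 and 0.32. The mean was 1.72 ± 0.22 for RANGAP1 (SD, n = 2) and 0.38 ± 0.47 for the others (SD, n = 8). The groups did not overlap on this scale, though they did on the plain scale, and NUMBL was chosen by these folds. Among the other peaks of the RANGAP1 lists, 6.60% and 4.28% had a fold at or above the NUMBL median. In the VIM lists the share was 19.5% and 34.9%, and in the ZNF184 lists 35.7% and 44.2%.

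With so few input reads the fold depends on them, so each NUMBL peak was also set against peaks of its library with the same number of input reads. This gave 1.54 and 1.49 for RANGAP1, a mean of 1.51 ± 0.04 (SD, n = 2). The other 8 libraries averaged 0.09 ± 0.37 (SD), between −0.42 in ZNF184 replicate 1 and 0.74 in VIM replicate 1. Summed over the transcript, RANGAP1 had 141 eCLIP and 28 input reads in replicate 1 and 201 and 40 in replicate 2. The log2 folds of the sums were 2.89 (2.30 to 3.53) and 3.16 (2.66 to 3.69), and those of VIM were 3.60 (0.99 to 6.99) and 2.71 (0.81 to 4.89). The VIM sums hold 5 and 8 eCLIP reads beside 2 and 4 of the input.

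All 25 RANGAP1 peaks on NUMBL lay within 3600 nt of the 5′ end of an interval of 24793 nt. Segment 1 of 10 held 7 of 10 peaks in replicate 1 and 11 of 15 in replicate 2, and the rest lay in segment 2. Beyond 3600 nt the RANGAP1 libraries had 0 peaks, whereas AIFM1 replicate 2 had 4 of 7, NUMA1 replicate 2 had 2 of 4, VIM had 1 of 1 and 1 of 2, and ZNF184 had 5 of 9 and 1 of 3. NUMA1 replicate 1 and RNF219 also had all their peaks, 3 and 2, in the first 3600 nt. The 3600 nt line was drawn after the positions were seen. The NUMBL gene is mostly intron by length, and whether a peak is exonic was not analysed here.

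**Figure D4:**
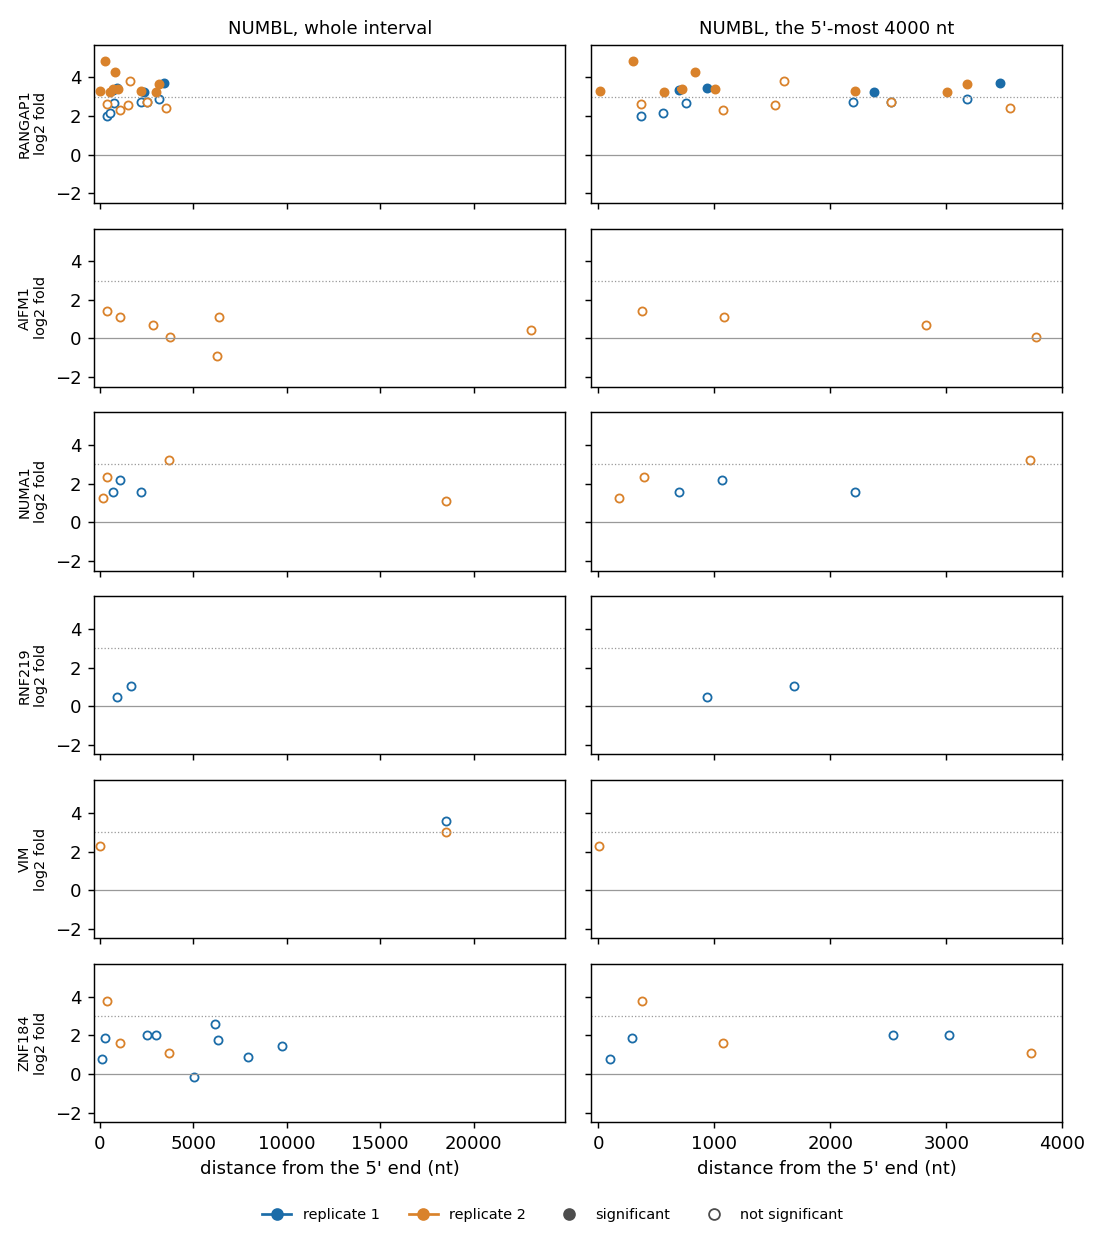
Log2 fold over input of each NUMBL peak against its distance in nt from the 5′ end, 1 row per protein, over the whole interval at left and its 5′ end enlarged at right, coloured by replicate, with filled points for significant peaks. The 25 RANGAP1 peaks lie within 3600 nt of the 5′ end, and filled points occur in the RANGAP1 row alone. With the few reads they had, at most 9, no peak of AIFM1 replicate 2, NUMA1 replicate 1, RNF219, VIM replicate 2 or ZNF184 could be filled.

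The NUMBL peaks formed 33 regions, of which 6 held both RANGAP1 replicates, and RANGAP1 was significant in 12 regions in either replicate and in 1 in both. That region lay 666 to 778 nt from the 5′ end (hg19 chr19:41195825-41195937). Its highest peak had 21 eCLIP and 3 input reads and a log2 fold of 3.37 (1.63 to 5.76) in RANGAP1 replicate 1, and 24 and 4 reads and a fold of 3.42 (1.87 to 5.40) in RANGAP1 replicate 2. The only other library with a peak there was NUMA1 replicate 1, at 1.59 from 5 reads beside 3. Replicate 2 was higher in 6 of the 6 shared regions, by a median of 0.59, with a Pearson r of 0.572 over them.

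The highest NUMBL folds of all came from RANGAP1 replicate 2 alone. They were 4.83 at 281 to 319 nt, from 16 reads beside 1, and 4.29 at 814 to 853 nt, from 11 reads beside 1. RANGAP1 replicate 1 had no peak at either place. Its own highest, 3.73 from 18 reads beside 2 at 3430 to 3490 nt, had no counterpart in replicate 2. Of the 9 regions with a peak of replicate 1, 6 also held one of replicate 2, but the highest peak of each replicate was not among them. An input of 1 read cannot be told from 0, and the intervals of the 4.83 and the 4.29 reach down to 2.14 and 1.51.

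Elsewhere on NUMBL, at 345 to 418 nt, RANGAP1 was at 2.02 and 2.64, ZNF184 replicate 2 at 3.78 from 9 reads beside 1, NUMA1 replicate 2 at 2.34 and AIFM1 replicate 2 at 1.42. VIM had its highest folds far from RANGAP1, at 18513 to 18564 nt, with 3.60 and 3.03 from 5 reads beside 2 in each replicate. At the very start of the interval RANGAP1 replicate 2 was at 3.29 from 11 reads beside 2, and VIM replicate 2 at 2.30 from 3 beside 2. These VIM folds rest on 3 to 5 reads a peak. NUMA1 replicate 2 reached 3.25 at 3715 to 3741 nt from 3 reads beside 1, and ZNF184 replicate 1 reached 2.62 at 6150 to 6217 nt from 9 beside 2. At 1060 to 1096 nt RANGAP1 replicate 2 was at 2.29 from 11 reads beside 4, and AIFM1 replicate 2 at 1.10 from 4 beside 1. At 918 to 963 nt RANGAP1 replicate 1 was at 3.47 from 15 reads beside 2, and RNF219 at 0.49 from at least 2 beside 1. RNF219 had its other peak at 1688 to 1695 nt, at 1.07. In shared regions RANGAP1 was higher than AIFM1 in 2 of 2, NUMA1 in 3 of 4, RNF219 in 1 of 1, VIM in 1 of 1 and ZNF184 in 4 of 5. Regions without a RANGAP1 peak were again left out.

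The RANGAP1 peaks nearest to the intervals on the outside were not significant. The nearest RANGAP1 peak on the same strand before the 5′ end of NUMBL lay 1032 nt away in replicate 1 and 1030 nt in replicate 2, at 0.88 and 1.15. Past its 3′ end the nearest were 200179 and 200234 nt away, at 1.30 and 0.83. Past the 3′ end of ZNF703 they were 36611 and 36615 nt away, at 2.02 and 1.64. The lowest folds on ZNF703 in the same libraries were 1.55 and 2.17, so the outside peak was within the range of ZNF703 in replicate 1 and below it in replicate 2.

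Other places with a like order of libraries were sought among 520 windows of 5000 nt on 1 strand, each with at least 3 peaks in at least 9 libraries, both of RANGAP1 included. Likeness was Pearson's r over those libraries of the median fold less the library's median, given as a description of windows that share libraries and inputs. The 3 windows most like ZNF703 were hg19 chr7:150065001-150070000 (r = 0.926, 10 libraries), chr19:1205001-1210000 (0.921, 9 libraries) and chr17:45725001-45730000 (0.885, 9 libraries), all on the plus strand. For NUMBL they were chr3:14985001-14990000 on the minus strand (0.932), chr1:27020001-27025000 on the plus strand (0.909) and chr8:145685001-145690000 on the minus strand (0.900), each over 9 libraries. The median r over all windows was 0.19 for ZNF703 and −0.06 for NUMBL. The RANGAP1 medians in the 3 windows most like ZNF703 were 0.91 and 0.71, 1.04 and 1.31, and −0.03 and 0.19 above their lists, in each replicate below the 1.29 and 1.55 of ZNF703 on the same scale. Gene names of these windows were not analysed here.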

How the data were processed

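eCLIP peak lists of 11 libraries in 293T cells were used, called per library. Per the submitters' processing notes, cutadapt, STAR, GATK, Picard and SAMtools were used with the build hg19. Versions, the caller of peaks and any duplicate removal were not named in the sources used. Each deposited list gives, per peak, the authors' −log10 p against the size-matched input (0 below input, at most 400) and the authors' log2 fold over that input. No total depth is given, and no input list was used.

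From these values read numbers were recovered: 95.1% to 98.9% of a library's folds were ratios of whole numbers (within 1e-07, log2), and 99.1% to 99.987% of p-values then matched a chi-square or exact p (within 0.005, log10). Recovery was tested on simulated data made with the same p formula, which checks the arithmetic only. Intervals are exact (Clopper-Pearson). Peaks overlapping by at least 1 nt were merged into regions; a region's value is its highest peak. Scripts used Python 3.11.15, numpy 2.4.6, pandas 2.3.3, scipy 1.17.1 and matplotlib 3.10.9.

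The members, thresholds and rules were chosen with earlier results of these data known. Named regions are those significant in both RANGAP1 replicates, the 2 highest of each other protein, and the 3 most alike windows; the others named were chosen after their values were seen. The planned minimum of 10 input reads left no NUMBL peak, so no minimum was used there. Alternatives varied thresholds, the interval edge, centring, the input minimum and the libraries left out. The NUMBL promoter came from a RefSeq table on GRCh38, which matched 1 of 2 members.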

Additional observations from a re-analysis of the deposited data

Results flagged for a closer look

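On ZNF703 the median fold in the 5′-most of 10 equal segments of the interval less that in the 3′-most was positive in both RANGAP1 libraries (0.62 and 1.04) and negative in both AIFM1 libraries (−0.79 and −2.15) and both ZNF184 libraries (−1.82 and −1.54). The means differed by 2.30 on the log2 scale for RANGAP1 minus AIFM1 and by 2.51 for RANGAP1 minus ZNF184. These differences were not tested. They rest on 3 or 4 peaks at each end in the RANGAP1 libraries and on 2 to 4 in the others, and each protein has its own input. In the 3′-most segment the AIFM1 peaks had only 2 to 7 input reads, against 10 to 21 for the ZNF184 peaks. The contrast with AIFM1 is thus the less certain of the 2.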

How the results depend on the processing

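Alternatives were run for the counts of significant RANGAP1 peaks and the centred RANGAP1 differences, and none turned the sign of a difference. Since both transcripts were chosen for high RANGAP1 folds, a positive sign was built in and nothing is read from it. The mean number of significant RANGAP1 peaks, 4.0 on ZNF703, was 12.5 at a log2 fold of at least 2 and 0.5 at 4. On NUMBL it was 6.5, and 1.0 at a fold of at least 4 and 2.0 at −log10 p of at least 5. Without 1 RANGAP1 replicate, ZNF703 had 2.0 to 6.0 and NUMBL 4.0 to 9.0, so replicate 2 carried most calls. The centred RANGAP1 difference on ZNF703, 1.81, was 2.12 with no minimum of input reads, 2.20 without centring, 2.05 in shared regions and 2.06 without VIM, and under 2 alternatives added after seeing the data 1.54 (centred at equal input reads) and 2.11 (summed reads). On NUMBL, 1.34 became 1.08 as a mean over nucleotides and 0.995 in shared regions. The causes were not tested. Minima of 5 or more input reads gave no NUMBL value, whose 1 to 6 input reads limit every fold there. No paired analysis was possible because these results come from no test.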
